A study of Mus musculus with 6 samples.

Results

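The comparison set the 2 whole-lung arrays labelled FcRg KO against the 2 labelled FceRIa KO, with the challenge matched, so that 1 pair of arrays came from lungs given PBS and the other from lungs given mouse histamine-releasing factor (HRF). It used 4 of the 6 arrays of the study, and the 2 wild type (WT) arrays served for reference only. All 6 groups are C57BL/6 by label and consist of 1 array each: WT, FcRg-/- and FceRIa-/- lungs, with an intranasal challenge of PBS or of HRF. Whether an array holds the RNA of a single mouse or of a pool, the age and sex of the mice, the dose, the time after the challenge and the origin of the knockout alleles are not given in the sources used here. A gene was kept where it differed the same way in both matched pairs, and of 19748 genes named on the array, 16792 had a signal well above background on 1 or more of the 4 knockout arrays. Of these, 10744 (64.0%) differed the same way, and 212 did so by at least 2-fold in each pair. That both pairs go the same way is how these genes were chosen and is not a result about them.

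FcRg, encoded by Fcer1g, is the signalling chain shared by the high-affinity IgE receptor, the activating IgG receptors and several other immune receptors, while FceRIa, encoded by Fcer1a, is the chain of the high-affinity receptor that binds IgE on mast cells and basophils. Tpt1 encodes HRF, which cells can secrete and which can bind IgE. Mature B cells, which recur below, carry a surface immunoglobulin that signals through Cd79a and Cd79b, and in the lung they lie in vessels, septa and lymphoid aggregates.

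Levels are given as log2 of the processed spot intensity relative to the 75th percentile of its array, so that 0 marks that percentile and -6 lies close to background. Differences are FcRg KO minus FceRIa KO on that scale, so negative values mark genes that were lower on the arrays labelled FcRg KO. With 1 array per group, no difference within a pair has a replicate check. The average over both challenges was tested with limma over all 6 arrays, with genotype and challenge as additive terms and 2 residual degrees of freedom. Its residual is the difference between the challenges' genotype effects and not the spread between mice. Each array held 59305 spots other than controls, of which between 67.5% and 79.6% were well above background and 0 were saturated. All arrays lay on 1 slide scanned once, but the FceRIa-labelled pair lay in the other row from the 4 remaining arrays, so slide row and label cannot be told apart.

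In the PBS pair, 383 genes (2.28%) exceeded 2-fold upward and 260 (1.55%) downward on the array labelled FcRg KO. In the HRF pair, 383 (2.28%) were higher and 408 (2.43%) lower. In both pairs together, 114 genes (0.679%) passed 2-fold upward and 98 (0.584%) downward, while 85 went at least 2-fold in opposite directions. Of the 114 higher genes, 94 had a mean level under -5 and 21 encode olfactory or vomeronasal receptors, against 31 and 1 of the 98 lower genes. Of all genes compared, 1737 (10.3%) had such a level and 359 (2.14%) encode such receptors. Restricted to the 15689 genes well above background on all 4 arrays, 21 genes were higher and 62 lower in both pairs, with 35 in opposite directions. Single pairs of these genes gave 138 higher and 129 lower (PBS) and 126 higher and 241 lower (HRF). The limma test called 3 genes higher (0.017%) and 23 lower (0.131%) of 17601 at an adjusted p of 0.05, and 1642 had an unadjusted p under 0.05. With any 1 array left out, 1 residual degree of freedom remained and no gene passed, with the lowest adjusted p between 0.119 and 0.220. All 26 called genes kept their sign in each of those fits. Without a WT array the estimate is the same mean of both knockout pairs, so there the sign could not change. The 26 were called for large differences on these same arrays, so the kept signs are not separate evidence.

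**Figure D1:**
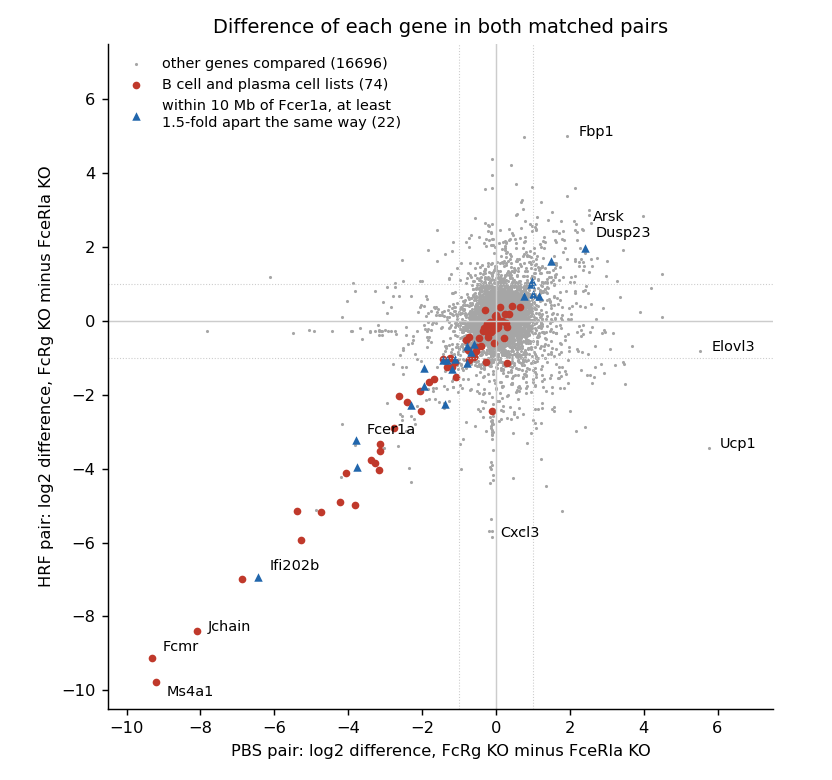
Log2 difference between the arrays labelled FcRg KO and FceRIa KO for each of the 16792 genes compared, in the PBS pair (x axis) and the HRF pair (y axis), with dotted lines at 2-fold. Red circles are genes of the B cell and plasma cell lists and blue triangles the 22 genes within 10 Mb of Fcer1a that differed the same way by at least 1.5-fold. The far lower left holds B cell genes such as Ms4a1 (-9.20 and -9.77), whereas Ucp1 (5.77 and -3.43) lay on opposite sides.

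Of the 62 well measured lower genes, 41 were at least 2-fold away from WT under both challenges on the FcRg-labelled arrays. For these 41, the FceRIa-labelled arrays stayed within 1.5-fold of WT. By the same limits, the FceRIa-labelled arrays alone were off WT for 4 genes, and all 4 lie near Fcer1a. Both comparisons with WT share the WT arrays, so these counts describe levels and are not separate evidence. Of the 98 lower genes, 29 belonged to a B cell or plasma cell list, counting the 3 lists made after the values were seen, and 11 lay within 10 Mb of Fcer1a. Of all genes compared, 75 (0.447%) and 188 (1.12%) did. Lung identity genes lay close together: Sftpc, the surfactant protein of alveolar type 2 cells, lay between 8.05 and 8.34 on all 6 arrays and Scgb1a1, the secretory protein of club cells, between 8.12 and 8.41. The alveolar type 1, alveolar type 2, club, ciliated, endothelial, mesothelial and fibroblast lists had between 10 and 23 measured genes each. In them, 0 genes were at least 2-fold apart the same way in both pairs, and 0 passed the limma threshold. Over all genes, 0.679% were that much higher and 0.584% lower, and limma called 0.017% higher and 0.131% lower. At those shares, lists this small could give 0 by their size alone.

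The targeted genes did not follow their labels. For Fcer1g, the PBS and HRF arrays gave 3.93 and 4.61 in WT, 4.14 and 4.32 under the FcRg KO label, and 4.07 and 4.45 under the FceRIa KO label. The 4 knockout values overlap, and the difference was 0.07 in the PBS pair and -0.13 in the HRF pair (mean -0.03, SE 0.15, limma adjusted p = 0.961). Fcer1a lay at -4.48 and -4.19 in WT and at -4.70 and -4.38 on the FcRg-labelled arrays, but at -0.90 and -1.16 on those labelled FceRIa KO, so the arrays labelled for its loss carried the higher level. That difference was 13.9-fold in the PBS pair and 9.31-fold in the HRF pair (mean -3.51, SE 0.19) and did not pass the threshold (limma adjusted p = 0.0555). The position of either probe relative to the deleted part is unknown, and a probe that lies outside checks nothing, so the groups keep their label names in the text. The receptor's beta chain gene Ms4a2 was dim on all 6 arrays, and Tpt1 lay between 7.72 and 8.15 on all 6. Among the other Fc receptors, Fcgr1, Fcgr2b, Fcgr3 and Fcgr4, whose activating members pair with FcRg, had mean differences between 0.17 and 0.60 with adjusted p from 0.607 to 0.868, and Fcgrt, the neonatal receptor, differed by -0.05.

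B cell genes were far lower on the arrays labelled FcRg KO and stood near the WT level on those labelled FceRIa KO. Of 19 measured B cell markers, 17 were at least 2-fold lower in both pairs, against 0.584% of all genes compared. The limma threshold was passed by 10, against 0.131% of all genes tested that were called lower. Of the 19, 5 were dim on both FcRg-labelled arrays. These 5 entered the comparison only through the FceRIa-labelled arrays, so their place in the count leans on that filter. The median difference of the list was -3.17 in the PBS pair and -3.77 in the HRF pair, beside 0.03 and 0.04 over all genes. Relative to the WT PBS array, the list's median was 0.21 on the WT HRF array, -3.20 and -3.45 on the FcRg-labelled arrays, and 0.02 and 0.28 on the FceRIa-labelled ones. In whole lung, fewer B cells and less RNA per B cell cannot be told apart.

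The stretches of 250 bases upstream of 4 of these genes are shown for their letters. Whether any motif in them bears on these differences was not tested. They come from RefSeq (GRCm38.p6), run 5′ to 3′ on the gene's strand and end just before the annotated start. Capitals mark matches to GAGGAAGT, a PU.1 and Spi-B motif, or to CCCNNGGG, an EBF1 core, searched on both strands, so that ACTTCCTC is the first of them read on the other strand. Cd79a, with no match, is shown beside 3 genes that have one. The regions are chr7:24897247-24897496 (plus strand) for Cd79a, chr3:136326067-136326316 (minus) for Bank1, chr3:87376137-87376386 (plus) for Fcrl1 and chr4:43454627-43454876 (minus) for Cd72.
Cd79a: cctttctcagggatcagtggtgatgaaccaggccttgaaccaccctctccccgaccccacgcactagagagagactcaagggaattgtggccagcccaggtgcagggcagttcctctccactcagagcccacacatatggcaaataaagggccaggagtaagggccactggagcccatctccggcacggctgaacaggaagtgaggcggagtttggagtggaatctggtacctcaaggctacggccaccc
Bank1: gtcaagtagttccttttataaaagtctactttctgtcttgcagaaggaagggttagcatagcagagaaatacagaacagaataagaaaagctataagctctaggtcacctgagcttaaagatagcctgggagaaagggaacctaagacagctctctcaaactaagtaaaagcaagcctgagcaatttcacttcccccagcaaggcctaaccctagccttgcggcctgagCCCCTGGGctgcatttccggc
Fcrl1: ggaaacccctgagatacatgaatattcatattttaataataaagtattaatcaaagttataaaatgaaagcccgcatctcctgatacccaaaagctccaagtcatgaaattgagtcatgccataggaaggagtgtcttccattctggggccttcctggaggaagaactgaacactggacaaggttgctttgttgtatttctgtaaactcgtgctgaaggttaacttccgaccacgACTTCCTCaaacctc
Cd72: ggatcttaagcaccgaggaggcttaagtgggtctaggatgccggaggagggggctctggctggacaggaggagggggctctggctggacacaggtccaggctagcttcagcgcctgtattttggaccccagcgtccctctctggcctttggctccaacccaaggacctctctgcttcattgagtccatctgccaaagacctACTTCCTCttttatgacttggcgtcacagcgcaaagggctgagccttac

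Of the 19 B cell markers, 14 had such a stretch. GAGGAAGT lay in 3 of them (Cd37, Cd72 and Fcrl1), against 2.79% of 27025 genes with such a stretch. CCCNNGGG lay in 2 (Cd22 and Bank1), against 13.4%, and the octamer ATTTGCAT, to which the partners of Pou2af1 bind, lay in 1 (Vpreb3), against 1.81%. Of the 62 well measured lower genes, 49 had a stretch, and 4 (8.16%), 8 (16.3%) and 3 (6.12%) of them held the 3 motifs in that order. A match describes letters only.

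The surface receptors showed the widest gaps. Ms4a1, which encodes CD20, lay at 2.60 and 2.78 in WT and at 2.36 and 2.76 on the FceRIa-labelled arrays. It was not well above background on either FcRg-labelled array, which makes it at least 471-fold lower in the PBS pair and at least 621-fold lower in the HRF pair (limma adjusted p = 0.0086). Such a bound sets the measured level against the higher of the dim probe's own signal and the lowest signal that was well above background on its array. Fcmr, the receptor for IgM, fell from 2.39 and 2.79 in WT and 2.75 and 3.14 on the FceRIa-labelled arrays to -6.56 and -5.99 (limma adjusted p = 0.0039), a bound of at least 617-fold in the PBS pair and a ratio of 561-fold in the HRF pair.

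Other receptors followed at smaller sizes. Cxcr5, which guides B cells to follicles, lay at -4.79 and -4.70 on the FcRg-labelled arrays against -0.06 and 0.48 on the FceRIa-labelled ones (mean -4.95, SE 0.16, limma adjusted p = 0.0265). Tnfrsf13c, the receptor for the survival factor BAFF, was at least 38.3-fold and at least 42.2-fold lower (adjusted p = 0.0364), although its 2 measured probes disagreed in size, with mean differences of -5.59 and -1.91. Cr2, the complement receptor of B cells, had levels of -2.96 and -3.32 against 0.31 and 0.54 and did not pass (adjusted p = 0.0555). Fcer2a, the low-affinity IgE receptor CD23, passed as well, with -0.40 and 0.41 in WT, -3.25 and -2.60 on the FcRg-labelled arrays and -0.49 and 0.31 on the FceRIa-labelled ones (mean -2.83, SE 0.09, adjusted p = 0.0265). The Fc receptor-like genes Fcrl1 (adjusted p = 0.0364) and Fcrla (adjusted p = 0.0303) also passed, Fcrl1 at -2.49 and -2.01 on the FceRIa-labelled arrays and not well above background on the FcRg-labelled ones.

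**Figure D2:**
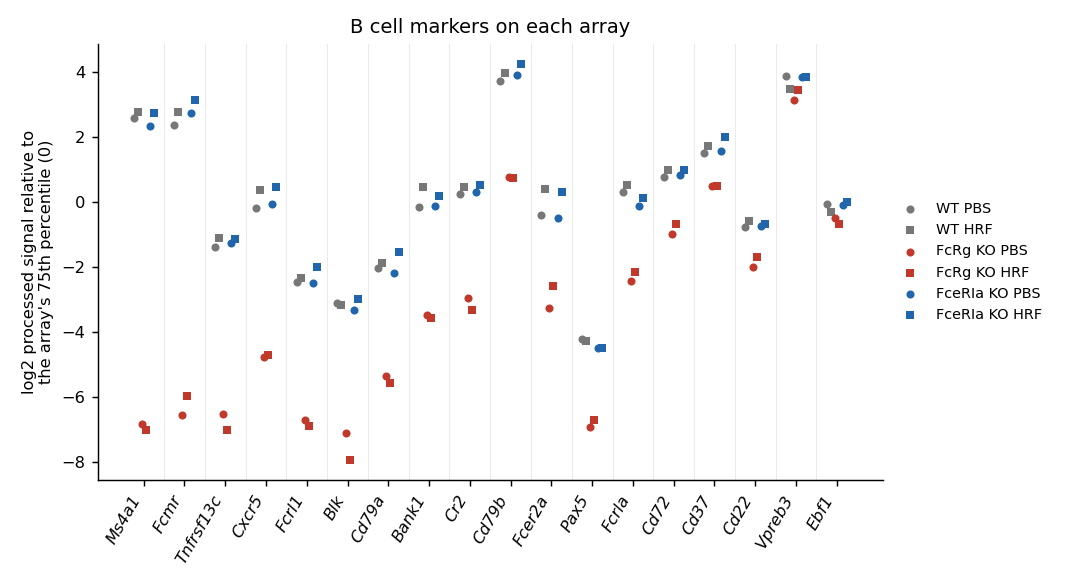
Level of each of 18 B cell markers (log2 processed signal relative to the array's 75th percentile, y axis) on each of the 6 arrays, circles for PBS and squares for HRF, ordered by mean difference. Grey WT and blue FceRIa-labelled points lie together, and red FcRg-labelled points lie below them, by at least 2-fold in both pairs for 16 genes. Vpreb3 and Ebf1, at the right, show the smallest gaps.

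Within antigen receptor signalling, gaps were wide for B cell-restricted parts and smaller for several parts that other leukocytes share. These 26 genes, and the transcription factors and homing signals below, were listed after the values of the main lists had been seen. Of the 26, 9 were at least 2-fold lower in both pairs, against 0.584% of all genes compared. The limma threshold was passed by 2, against 0.131% of all genes tested that were called lower. Cd79b, a signalling chain of the receptor, lay at 0.76 and 0.74 on the FcRg-labelled arrays against 3.91 and 4.27 (mean -3.34, SE 0.13, adjusted p = 0.0343). Its partner Cd79a lay at -5.35 and -5.57 against -2.18 and -1.53 (mean -3.61, SE 0.24, adjusted p = 0.0948). The B cell adaptor Blnk (mean -1.62), the Src family kinase Blk, which was at least 9.27-fold and at least 11.7-fold lower, the kinase Prkcb (-1.21) and the inhibitory lectins Cd22 (-1.13) and Siglecg (-2.32) were lower by value in both pairs. By contrast, Lyn, Plcg2, Vav1, Ptpn6 and Inpp5d, which act in many leukocytes, had mean differences between -0.46 and -0.17. Syk, which also transmits signals from FcRg, lay at 1.73 and 1.69 on the FcRg-labelled arrays and 2.46 and 2.75 on the FceRIa-labelled ones, a mean difference of -0.90 (adjusted p = 0.376).

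The transcription factors divided in a like way, with 6 of 16 at least 2-fold lower in both pairs and 3 past the threshold. The shares over all genes were 0.584% and 0.131%. Pou2af1, the octamer coactivator OCA-B, lay at -3.84 and -3.63 on the FcRg-labelled arrays against 1.56 and 1.52 (mean -5.28, SE 0.10, limma adjusted p = 0.0086). Spib, an ETS factor of B cells, lay at -2.50 and -2.28 against 1.55 and 1.82 (mean -4.08, SE 0.08, adjusted p = 0.0087). Pax5, which fixes B cell identity, was dim on the FcRg-labelled arrays and at least 4.06-fold lower in both pairs (adjusted p = 0.0419). Bcl11a, Mef2c and Pou2f2 had mean differences of -1.97, -1.29 and -1.11 that did not pass. Ebf1, an early B lineage factor, stood out from them at -0.49 and -0.66 against -0.07 and 0.02, and Ikzf1, Ikzf3, Irf8, Spi1 and Bcl6, which other leukocytes use, lay between -0.16 and 0.22 in the mean. Vpreb3, the other B cell marker short of 2-fold, lay at 3.15 and 3.45 against 3.86 and 3.87.

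Antibody-secreting cell genes gave a mixed picture. Jchain, which joins IgA and IgM into polymers, lay at -1.12 and 0.92 in WT, -6.55 and -6.10 on the FcRg-labelled arrays and 1.54 and 2.30 on the FceRIa-labelled ones (limma adjusted p = 0.0555). The FcRg-labelled PBS array was dim for it, which makes it at least 267-fold lower in that pair. Mzb1, a chaperone of antibody assembly, lay at -2.96 and -2.70 against 0.18 and 0.63 (mean -3.23, SE 0.10, adjusted p = 0.0222). The plasma cell regulators Xbp1 and Prdm1 and the surface proteoglycan Sdc1, all of which lung epithelium or stroma can also make, differed by -0.05, -0.02 and 0.07. In all, 3 of 9 genes of this list were 2-fold lower in both pairs, against 0.584% of all genes compared. Of probes that carry an Ensembl transcript identifier with no current gene name here, 119 of 2315 (5.14%) were at least 2-fold lower in both pairs and 27 (1.17%) higher, against 1.58% and 1.42% of all unnamed probes. Of the 119, 26 were well above background on all 4 arrays. The transcript ENSMUST00000103749 lay at 2.87 and 3.02 in WT, -3.85 and -3.40 on the FcRg-labelled arrays and 3.03 and 3.42 on the FceRIa-labelled ones. It was chosen after its values were seen, and the files used here do not pair it with a gene.

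Of 27 measured MHC genes, 4 were at least 2-fold lower in both pairs and 0 higher, against 0.584% and 0.679% of all genes compared. H2-Ob and H2-Oa, the chains of the B cell modulator of peptide loading, lay at -1.24 and -0.99 against 1.31 and 1.60 (H2-Ob, mean -2.57, SE 0.09, limma adjusted p = 0.0317) and at -0.74 and -0.58 against 0.90 and 1.03 (H2-Oa, adjusted p = 0.0585). H2-Eb2 (adjusted p = 0.0364) and H2-DMb2 (adjusted p = 0.114) were also at least 2-fold lower in both pairs. The class II chains H2-Aa, H2-Ab1 and H2-Eb1 and the invariant chain Cd74, which macrophages and dendritic cells carry as well, had mean differences between -0.19 and 0.07.

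Of 15 measured signals and receptors that draw or sustain B cells, 3 were at least 2-fold lower in both pairs (Tnfrsf13c, Tnfrsf17 and Ccr6). In the HRF pair 6 were, and 1 (Tnfrsf13c) passed the limma threshold. Of all genes compared, 0.584% were that much lower in both pairs and 2.43% in the HRF pair. Tnfsf13b, which encodes BAFF, lay between 0.66 and 0.79 on all 4 knockout arrays and Ccl21a between 5.51 and 5.55. Cxcl13, the ligand of Cxcr5, lay at -1.97 and -2.29 on the FcRg-labelled arrays and at -1.87 and 0.16 on the FceRIa-labelled ones, a difference of -0.10 in the PBS pair and -2.45 in the HRF pair. Ccr6 had mean -2.23 and Ltb, a lymphotoxin chain of B and T cells, -0.78, and neither passed.

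Other leukocyte lists did not show a loss of that size. T cell markers had median differences of 0.65 and 0.27, with 20 of 22 genes higher in both pairs by any amount against 38.6% of all genes compared. Ctla4, an inhibitory receptor, was at least 1.51-fold higher in the PBS pair, in which the FceRIa-labelled array was dim, and differed by 1.07 in the HRF pair. Cd3e lay at 1.68 and 1.98 in WT, 2.27 and 2.10 on the FcRg-labelled arrays and 1.51 and 1.85 on the FceRIa-labelled ones. Neutrophil markers had medians of -0.39 and -0.39, with 16 of 22 lower in both pairs by any amount, against 25.4% of all genes, and 1 of them, Ngp, by 2-fold (-2.04 and -1.09). Dendritic cell, monocyte and macrophage, and alveolar macrophage lists had medians between -0.06 and 0.26. No gene of these 5 lists passed the limma threshold, against 0.017% of all genes tested called higher and 0.131% lower. At those shares, lists of 17 to 22 measured genes could give 0 by their size alone.

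Outside the lists, the genes lowest in both pairs included several known from B cells and others that are not. Ly6d, a surface marker of the B lineage, lay at -1.56 and -1.22 against 2.63 and 3.02 (mean -4.21, SE 0.08, limma adjusted p = 0.0086). Serpina9, a serpin of germinal centre B cells, lay at -2.10 and -2.36 against 0.45 and 0.33 (adjusted p = 0.0343). The transcription factor Sox11 lay at -2.64 and -2.73 against -0.05 and -0.20 (adjusted p = 0.0343), and Niban3 and Ell3 passed as well (adjusted p = 0.0379 and 0.0364). Klhl14 was at least 7.27-fold and at least 8.51-fold lower (adjusted p = 0.0087). Cacna1i, a calcium channel subunit, passed on its brightest probe (mean -3.59, adjusted p = 0.0364), but its other measured probe differed by 0.02. Sox11, Niban3, Ell3 and Serpina9 were named after their values were seen.

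A second set of genes lay around the targeted loci themselves. Fcer1g and Fcer1a lie on chromosome 1, 1.99 Mb apart in the RefSeq gene table (GRCm38.p6). Within 10 Mb of Fcer1a, 22 of 188 genes (11.7%) differed the same way by at least 1.5-fold, against 2.9% of all genes compared and 2.95% of the genes farther away on that chromosome. The share was 13 of 30 (43.3%) within 1 Mb, 4 of 40 between 1 and 2 Mb, 4 of 36 between 2 and 5 Mb and 1 of 82 between 5 and 10 Mb, and 21 of the 22 lay within 3 Mb. Fcer1a itself is among them, 7 were higher and 15 lower on the FcRg-labelled arrays, and 1 (Fcrla) is a B cell gene. In contrast to the B cell genes, it was mostly the FceRIa-labelled arrays that lay off WT. Of the 22 genes, 16 were at least 1.5-fold off WT under both challenges there, against 4 on the FcRg-labelled ones. The 22 were chosen for differing between the labels, and both counts share the WT arrays. They describe levels and are not separate evidence, and the share of all genes that far off WT is not given here.

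**Figure D3:**
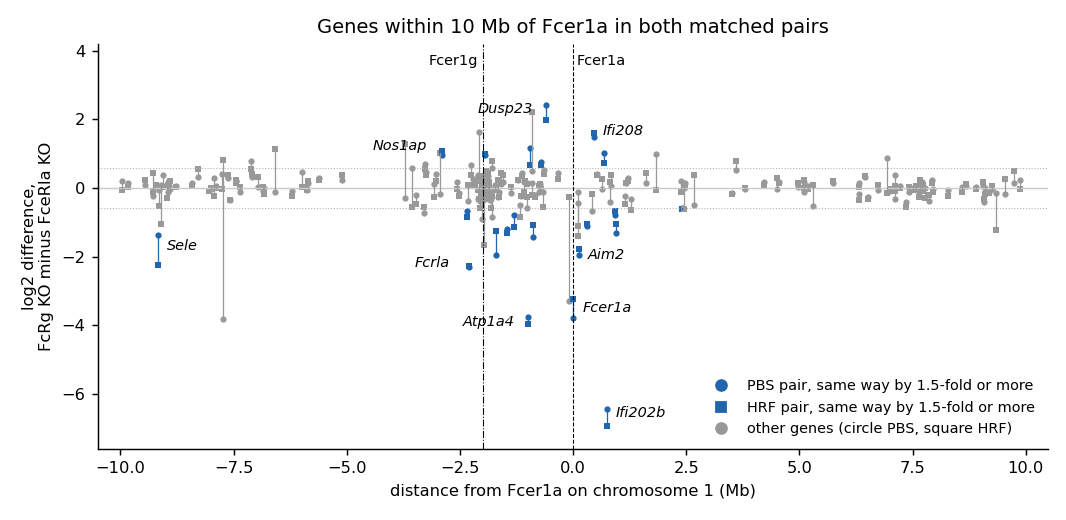
Log2 difference, FcRg KO minus FceRIa KO (y axis), of the 188 genes compared within 10 Mb of Fcer1a, against their distance from it (x axis, Mb), circles for the PBS pair and squares for the HRF pair. Blue marks the 22 genes at least 1.5-fold apart the same way and dotted lines that fold. They crowd between Nos1ap (-2.91 Mb) and Kmo (2.41 Mb), with Sele the exception, at -9.18 Mb. Sele was well above background on only 1 of the 4 knockout arrays.

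The interferon-inducible Ifi200 genes, which include sensors of DNA, went both ways within this stretch. Ifi202b lay at -5.37 and -4.78 in WT and was dim on the FcRg-labelled arrays (-6.32 and -6.31), but lay at 0.11 and 0.62 on the FceRIa-labelled ones, at least 86.3-fold and at least 122-fold apart (limma adjusted p = 0.0191). Aim2, the DNA sensor of an inflammasome, lay at -3.64 and -3.62 in WT, -4.06 and -4.05 on the FcRg-labelled arrays and -2.11 and -2.28 on the FceRIa-labelled ones (mean -1.86, SE 0.10, adjusted p = 0.0513), and Ifi214 was lower likewise (-1.10 and -1.04). In the opposite direction, Ifi208 lay at 3.18 and 3.22 on the FcRg-labelled arrays, near WT at 2.98 and 3.25, and at 1.69 and 1.60 on the FceRIa-labelled ones (mean 1.56, SE 0.12, adjusted p = 0.127). Ifi211 followed it (1.01 and 0.73). Members of this family are close copies of each other, so their probes may share signal. Type I interferon-stimulated genes elsewhere had medians of 0.19 and 0.36, with 21 of 23 higher in both pairs by any amount (38.6% of all genes). At least 2-fold apart in both were 0 of 23, against 0.679% higher and 0.584% lower of all genes compared.

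Other genes around Fcer1a had similar profiles. Atp1a4, a sodium pump subunit, lay at -5.50 and -5.21 in WT, -4.43 and -4.93 on the FcRg-labelled arrays and -0.66 and -0.97 on the FceRIa-labelled ones (mean -3.86, SE 0.23, limma adjusted p = 0.0623). Dusp23, a phosphatase, lay at 0.89 and 0.86 in WT, 1.002 and 0.97, and -1.41 and -1.01 in the same order (mean 2.20, SE 0.15, adjusted p = 0.0998). The FceRIa-labelled arrays thus carried the high value of Atp1a4 and the low value of Dusp23. For Atp1a4 the FcRg-labelled PBS array lay 1.06 above the WT PBS array. Kcnj10 (mean -1.25), the lymphocyte receptors Slamf1 (-1.24) and Slamf6 (-0.96), and Itln1, an intelectin of mucous cells (-1.61), were lower by value, and Nos1ap (1.02), Ppox (0.98) and Tagln2 (0.71) higher. The 2 measured probes of Tagln2 disagreed in sign, at -0.35 and 0.71. Of the 22 genes, Ifi202b and Fcrla passed the limma threshold.

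Genes higher on the arrays labelled FcRg KO were fewer than lower ones among the well measured (21 against 62) and in the limma test, but not over all genes compared (114 against 98). The 3 past the limma threshold were Arsk, Clec4f and Olfr710, and each has a limit. Arsk, a lysosomal sulfatase, lay at -1.84 and -1.89 in WT, 0.39 and 0.34 on the FcRg-labelled arrays and -1.93 and -2.17 on the FceRIa-labelled ones (mean 2.41, SE 0.10, adjusted p = 0.0343), but its other measured probe differed by -2.93. Clec4f, a C-type lectin, was dim on the FceRIa-labelled arrays and at least 2.58-fold and at least 1.80-fold higher (adjusted p = 0.0379). Olfr710, an olfactory receptor, was dim on all 4 knockout arrays and entered the limma test only through the WT arrays.

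Glrx, a glutaredoxin and neighbour of Arsk on chromosome 13, lay at 1.84 and 1.93 against 0.41 and 0.60 (mean 1.38, adjusted p = 0.289). The alpha-1-antitrypsin copies Serpina1a, Serpina1c and Serpina1e on chromosome 12 had mean differences of 2.22, 2.04 and 2.13 without passing (adjusted p from 0.127 to 0.293), and as near-identical genes their probes cannot be assigned with certainty. Fbp1 and Fbp2, enzymes of gluconeogenesis, lay at -0.54 and 2.69 against -2.47 and -2.33 (Fbp1) and at -2.75 and -2.95 against -5.12 and -4.55 (Fbp2). Ica1l (mean 1.79), Cntn1 (1.67), Greb1 (1.64), Spon2 (1.25) and the granzyme Gzmk (1.25) were higher by value in both pairs. Ccr3, the eotaxin receptor of eosinophils, lay at -2.50 and -0.72 in WT, -1.04 and -0.68 on the FcRg-labelled arrays and -2.59 and -2.06 on the FceRIa-labelled ones (adjusted p = 0.501). At the 2-fold limit, Ccl8 (1.05 and 1.51), Plppr5 (1.32 and 1.05) and Scin (1.05 and 1.40) lay just inside and Plac9a (0.98 and 0.99), Crip1 (0.97 and 1.01) and Uncx (1.23 and 0.98) just outside. Among the lower genes, Mcoln2 (-1.18 and -1.01), Cdca7l (-1.01 and -1.02) and Cd22 (-1.25 and -1.01) lay at the edge of the well measured ones.

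The type 2 list of 29 genes had similar medians in both pairs, 0.42 (PBS) and 0.38 (HRF), while single members lay farther apart in the HRF pair. On the FcRg-labelled array 5 genes were at least 2-fold higher in the PBS pair and 11 in the HRF pair, against 2.28% of all genes in each. Of them, 4 were so in both pairs, against 0.679% of all genes. In that direction 0 genes of the list passed the limma threshold, against 0.017% of all genes tested. The difference between pairs was not tested. Ccl24, which attracts eosinophils, lay at -2.01 and 3.07 in WT, -1.81 and 1.96 on the FcRg-labelled arrays and -2.52 and -1.30 on the FceRIa-labelled ones. Arg1, the arginase of alternatively activated macrophages, lay at -2.36 and -0.16, -1.93 and 1.20, and -2.33 and -3.01 in that order. For both genes the FcRg-labelled HRF array lay well above the FcRg-labelled PBS array, and the FceRIa-labelled HRF array lay below both other HRF arrays. Chil4, a chitinase-like protein, did so too, at 0.40 and 1.73, 0.97 and 3.28, and 0.42 and 0.42.

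Il4 and Il13, the type 2 cytokines, differed by 0.82 and 1.42 (Il4) and, in the HRF pair, by 1.87 (Il13). Both arrays of the PBS pair were dim for Il13. Mucous and goblet cell genes had medians of 0.33 and 0.53. Of 18 measured, 2 were 2-fold higher in the PBS pair and 8 in the HRF pair, against 2.28% of all genes in each. Clca1, a marker of goblet cells, lay at 4.40 and 6.57 in WT, 4.88 and 6.78 on the FcRg-labelled arrays and 4.14 and 3.73 on the FceRIa-labelled ones. Eosinophil granule genes did not rank with Ccr3: Prg2 lay at -1.20 and 0.36 on the FcRg-labelled arrays and 0.68 and 0.81 on the FceRIa-labelled ones, and Epx differed by -2.20 and -0.89.

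The neutrophil and monocyte chemokines were lower on the FcRg-labelled array under HRF. Their medians were 0.28 in the PBS pair and -0.84 in the HRF pair. In the HRF pair, 8 of 17 genes were at least 2-fold lower on the FcRg-labelled array, against 2.43% of all genes compared. Cxcl1, a neutrophil attractant, lay at -1.81 and 2.19 in WT, -2.64 and -3.40 on the FcRg-labelled arrays and -4.005 and 1.06 on the FceRIa-labelled ones. Ccl2, a monocyte attractant, lay at 0.07 and 4.42, -0.40 and -0.46, and -1.46 and 1.93 in that order. The FceRIa-labelled arrays thus separated by challenge as WT did, with a smaller gap for Ccl2, and both FcRg-labelled arrays lay below the WT HRF and FceRIa-labelled HRF arrays. NF-kB response genes had medians of 0.13 and -0.70 (6 of 30 at least 2-fold lower in the HRF pair) and acute phase genes 0.18 and -0.64 (9 of 26). Type 2 and chemokine lists hence lay on opposite sides in the HRF pair, and with 1 array per group this has no replicate check.

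**Figure D4:**
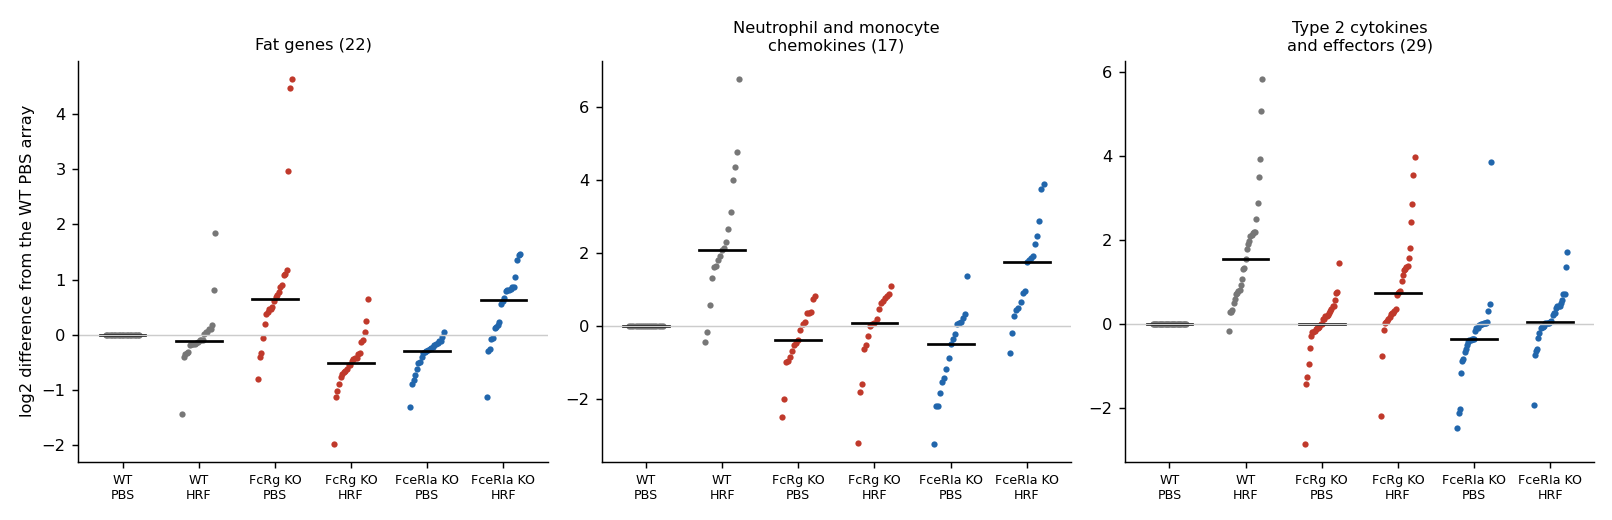
Log2 difference of each gene from the WT PBS array (y axis) on the 6 arrays for the fat list (22 genes), the neutrophil and monocyte chemokines (17) and the type 2 genes (29), each point a gene and each bar the median. The chemokine median is 2.07 on the WT HRF and 1.74 on the FceRIa-labelled HRF array but 0.08 on the FcRg-labelled one, while the type 2 medians are 1.54, 0.05 and 0.74. The fat medians of the knockout arrays cross, at 0.64 and -0.51 (FcRg-labelled PBS and HRF) and -0.29 and 0.64 (FceRIa-labelled).

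Other lists differed between pairs or stayed small. Cell cycle genes had medians of -0.17 and 0.71 and NK cell genes 0.06 and 0.78. Each list had 0 members past the limma threshold, against 0.017% of all genes tested called higher and 0.131% lower. Circadian clock genes had medians of -0.35 and -0.43: Per2, a repressor of the clock, lay at -0.38 and -0.98 in WT, -1.68 and -1.75 on the FcRg-labelled arrays and -0.44 and -0.79 on the FceRIa-labelled ones, and Arntl, its activator, at -1.62 and -1.10, 0.16 and -0.09, and -0.65 and -0.87. Zbtb16, a glucocorticoid-responsive regulator of innate lymphocytes, lay at 3.35 and 0.76 in WT, -0.08 and -0.15 on the FcRg-labelled arrays and 2.88 and 2.08 on the FceRIa-labelled ones (mean -2.59, SE 0.69, limma adjusted p = 0.484). The hour at which lungs were taken is not given in the sources used here.

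**Figure D5:**
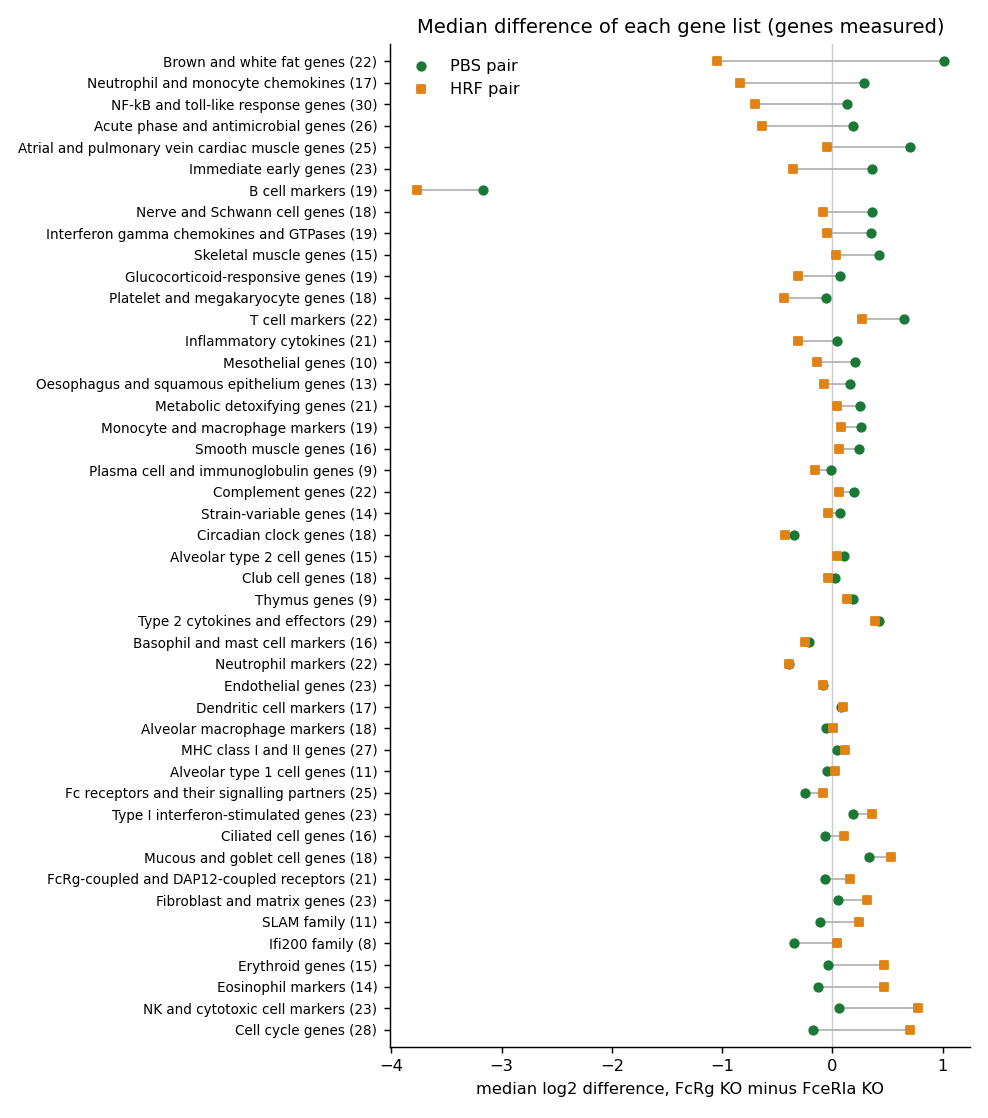
Median log2 difference, FcRg KO minus FceRIa KO (x axis), of 46 gene lists, with the number of genes measured in brackets, green circles for the PBS pair and orange squares for the HRF pair, ordered by the PBS minus the HRF median. B cell markers lie apart at -3.17 and -3.77, and fat genes show the widest gap between pairs, from 1.01 to -1.05.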

How the data were processed

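RNA from 6 whole lungs or lung pools, 1 array per group, was measured on 1-colour Agilent arrays. The deposited intensity of each spot is, per the file headers, the processed signal of Feature Extraction (version 10.7.3.1), and its background correction is not given in the sources used here. The deposited log2 value table of the same arrays served as an alternative. Here each intensity was turned into log2 and the log2 of the array's 75th percentile over all 59305 non-control spots was subtracted. Spots of a probe were averaged, and a gene took its brightest probe. Probes were named through RefSeq accessions: 26050 of 55681 probes had a current gene and 29631 had none.

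Genes entered the comparison if 1 or more of the 4 knockout arrays flagged them as well above background. Genotype was tested with limma 3.58.1 (R 4.3.3) with Benjamini-Hochberg adjustment, and the fit was tested on simulated data. P-values rest on how far the genotype differences vary between the challenges and do not measure the spread between mice. Named genes were the targeted and Fc receptor genes, list members, called genes, the largest same-way differences and those nearest the 2-fold limit. The members and lists were chosen with earlier results of these data known, and 3 B cell lists after the values were seen. Alternatives were normexp background correction, the value table, median centring, the filter on dim probes, probe averaging, the window size, the fold limit and leaving out each array. The mean signal column that normexp was planned on was not used here, and the median signal took its place. Some genes are not reported here.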

Additional observations from a re-analysis of the deposited data

Results flagged for a closer look

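Some genes moved in opposite directions in the 2 matched pairs, and none of these differences between pairs was tested, since each rests on 1 array per group. Ucp1, the uncoupling protein of brown fat, differed by 5.77 in the PBS pair and by -3.43 in the HRF pair, a gap of 9.20 on the log2 scale. The fat list as a whole had medians of 1.01 and -1.05, a gap of 2.06. Of its 22 genes, 12 exceeded 2-fold upward in the PBS pair and 11 downward in the HRF pair. Over all genes compared, those shares were 2.28% and 2.43%. Gys2, the liver glycogen synthase, differed by 3.48 and -1.72 (gap 5.20), and Thrsp, a regulator of fat synthesis, by 1.73 and -1.81 (gap 3.54). The part of adipose tissue in the lung samples was not tested.

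Among inflammatory genes, the cytokine Il6 differed by 2.01 and -2.44 (gap 4.45) and the chemokine Cxcl10 by 1.58 and -2.34 (gap 3.91). Vsig4, a complement receptor of macrophages, differed by 1.68 and -1.55 (gap 3.23). Mup20 differed by 2.61 and -1.69 (gap 4.29) and 2010003K11Rik by 2.66 and -1.53 (gap 4.19). Nlrp1b, an inflammasome sensor, went the other way, at -1.23 and 1.26 (gap -2.49).

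Probes without a current gene name, which no comparison of genes used, also differed. Of 19047 such probes well above background, 300 (1.58%) were at least 2-fold lower in both pairs and 271 (1.42%) at least 2-fold higher, against 0.584% and 0.679% of named genes. Of these, 81 and 24 were well above background on all 4 arrays. The unnamed were counted probe by probe and each named gene once by its brightest probe, so their shares are not like for like.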

How the results depend on the processing

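No paired analysis was possible because each group has 1 array, other than the match by challenge, which the limma fit holds as a term. The precision is limited by the number of arrays, and dim genes by their signal over background. With normexp background correction, 14 genes passed 2-fold upward and 50 downward in both pairs, against 114 and 98, and single pairs gave 81 higher and 79 lower (PBS) and 51 and 167 (HRF). Without the filter on dim probes, 174 were higher in both pairs, with 698 higher and 399 lower (PBS) and 655 higher (HRF). Requiring all 4 arrays above background gave 21 and 62, with 138 and 129 (PBS) and 126 and 241 (HRF). Raising dim signals gave 29 higher, and a 1.5-fold limit 298 and 189. The share of genes that differed the same way (64.0%) was 62.6% with normexp, 61.5% with median centring and 50.5% in the value table, where 33.5% of genes have a difference of 0 in a pair and 68.2% of the others went the same way. The limma calls (3 higher, 23 lower) were 7 and 46 with normexp, 0 and 9 in the value table, 5 higher with median centring, 0 and 13 without the filter, 0 and 0 with the 4 knockout arrays alone, between 0 and 0 with an array left out, and 10 lower without the B cell lists. Near Fcer1a, the share was 19.8% within 5 Mb and 7.59% within 20 Mb. Averaging probes reversed Arsk (-0.26), whose probes disagree. Of 1582 comparisons over 113 named genes, 1377 kept direction and side of the threshold, 155 lost and 33 gained a call, and 16 moved. Unless named, the cause was not tested.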
